A study of Homo sapiens with 12 samples.

Results

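TARP, the T-cell receptor gamma alternate reading frame transcript, was followed across LNCaP cells kept in 2 sera and given 3 treatments. It was identified by its gene symbol, which the array annotation pairs with a single transcript cluster (17056817), so it is 1 gene of the 14812 that could be named among the 44629 transcript clusters on the array. TARP was picked because earlier results on these arrays showed it to be higher in full than in charcoal serum in the vehicle-treated cells. That contrast is therefore given as a description with no test. The serum change under the taxanes and the comparison of the taxanes with each other take their means from none of its arrays. The comparisons with vehicle do use them. The spread behind the limma SE and p-values is pooled over all 12 arrays, those of vehicle included.

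LNCaP is an androgen-responsive human prostate cancer line, and all cells carried the control plasmid MSCV-LMP. They were grown in charcoal dextran treated serum, which is depleted of steroid hormones, or in full serum, and received ethanol vehicle, 1 nM cabazitaxel or 1 nM docetaxel for 16 h at about 80% confluency. The 12 arrays form 6 groups of 2 replicates. Separate cultures are not named for them, and p-values measure no more than the spread between these samples, which may be technical. No array was of a normal prostate cell or a second line.

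In prostate epithelium, TARP is read from the T-cell receptor gamma locus on chromosome 7 without the gene rearrangement that T cells carry out, and it shares sequence with the TRGC1 constant region, whose RefSeq interval lies inside that of TARP. Its transcription rises with androgen, the steroid hormone that also switches on genes such as those of the prostate kallikreins. Taxanes bind and stabilise microtubules, and the series asked how taxane treatment changes expression in cells with and without steroid hormones. The positions of the probes were not used here, and signal from TARP and from other transcripts of the same constant region cannot be told apart.

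TARP was low in every charcoal serum array and several-fold higher in every full serum array. The normalised array intensity, on a linear scale, was 29.3 and 27.3 in charcoal serum with vehicle, 34.0 and 32.4 with cabazitaxel, and 32.5 and 31.0 with docetaxel. In full serum it was 101 and 104 with vehicle, 126 and 128 with cabazitaxel, and 115.97 and 147 with docetaxel. The highest charcoal array, with cabazitaxel, lay far below the lowest full serum array, with vehicle, and the sera did not overlap. Such a lack of overlap, upward and over all 12 arrays, was met by 1.23% of the 11105 genes tested, and since the rule used the vehicle arrays it is a description.

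**Figure D1:**
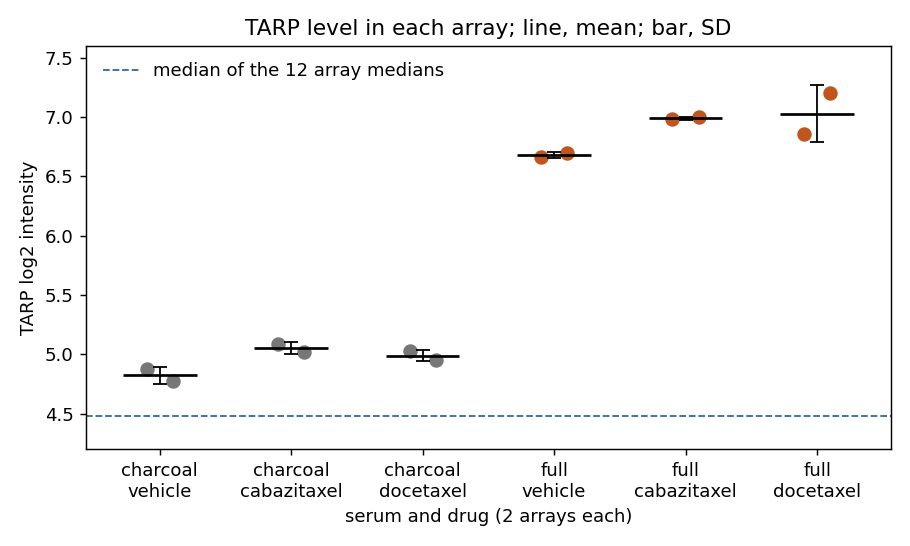
TARP log2 intensity (vertical axis) in each of the 12 arrays, by serum and drug (horizontal axis, 2 arrays a group), with the mean (line) and SD (bar); the dashed line is the median of the array medians. All charcoal serum arrays lie between 4.77 and 5.09 and all full serum arrays between 6.66 and 7.20.

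On the log2 scale the groups came in the order charcoal vehicle at 4.82 ± 0.071, charcoal docetaxel at 4.99 ± 0.049, charcoal cabazitaxel at 5.05 ± 0.050, full vehicle at 6.68 ± 0.026, full cabazitaxel at 6.99 ± 0.010 and full docetaxel at 7.03 ± 0.24 (SD, n = 2 arrays each). Within charcoal serum the taxane groups overlapped each other, and in full serum both cabazitaxel arrays fell between the docetaxel arrays. Neither pair of neighbours differed beyond its spread. The spread of full docetaxel was the widest of the 6 groups, and its replicate 2 held the highest TARP value of the series.

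The charcoal values sat near the lower end of the scale. The lowest value of any cluster was 17.3 and the median of all values 22.3. Intensities may therefore carry a background of unknown size, which would compress a fold change of TARP. Whether they do was not tested. With an assumed background of 16 subtracted, every serum fold below is larger. In bulk RNA, more TARP in each cell and more cells that make it cannot be told apart.

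The question of the serum change in arrays that had no part in choosing TARP was put to the 8 taxane arrays. Under cabazitaxel, full serum raised TARP 3.83-fold (95% confidence interval 3.28 to 4.46), a log2 change of 1.94 (SE 0.101, limma adjusted p = 8.61e-06), from 5.05 to 6.99. Under docetaxel it rose 4.11-fold (interval 3.53 to 4.80), a log2 change of 2.04 (SE 0.101, limma adjusted p = 4.87e-06), from 4.99 to 7.03. As the mean of both taxanes the rise was 3.97-fold (interval 3.56 to 4.42; log2 1.99, SE 0.072, limma adjusted p = 1.49e-07). In either direction limma called 0.396% of genes in vehicle, 0.396% under cabazitaxel and 0.315% under docetaxel, and it called 0.261%, 0.162% and 0.585% higher under cabazitaxel, under docetaxel and in their mean. TARP had the largest rise and the smallest limma p of all 11105 genes under cabazitaxel, under docetaxel and in their mean.

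An exact permutation test of TARP alone, exchanging serum labels within each drug, gave a two-sided p = 0.0556 over 36 arrangements, the smallest that exchange within drug can give for 4 arrays against 4. The 4 full serum taxane arrays all lay above the 4 charcoal ones, as they did for 3.38% of all genes. With the assumed background of 16 subtracted the folds were 6.45 under cabazitaxel, 7.27 under docetaxel and 6.85 in their mean, and limma still called them. With only the groups compared in the fit, and so no vehicle array, limma adjusted p was 0.000976 under cabazitaxel, 0.00834 under docetaxel and 7.23e-06 in their mean. The methods' t-test was a fit without moderation of only the groups compared, with the spread pooled over all of those. By the methods' t-test TARP had an unadjusted p of 0.000342 under cabazitaxel, 0.00736 under docetaxel and 2.47e-05 in the mean. Each was under 0.05, but the rises did not pass that test after adjustment over all genes (adjusted p = 0.562, 0.598 and 0.0559).

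**Figure D2:**
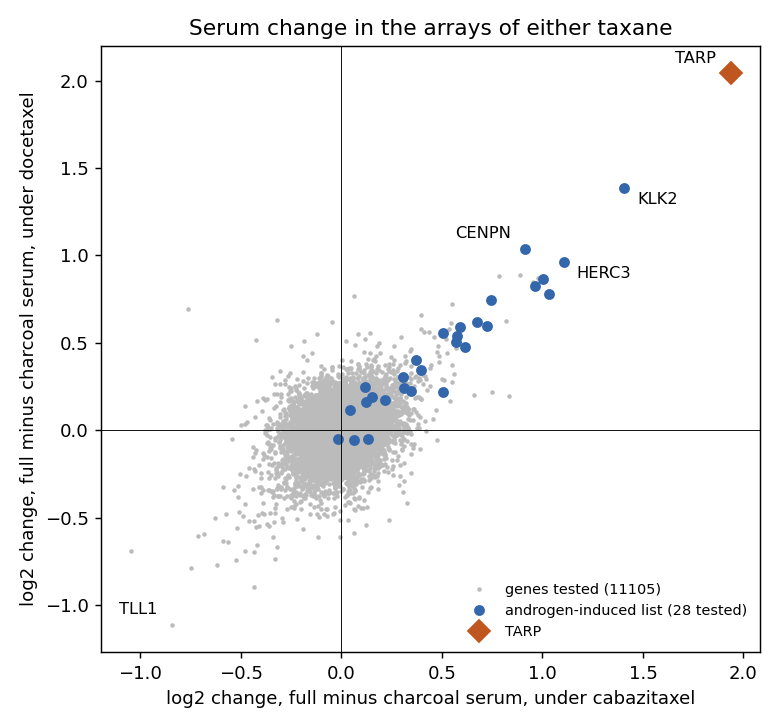
Log2 change from charcoal to full serum under cabazitaxel (horizontal axis) and under docetaxel (vertical axis) for the 11105 genes tested; the axes share no array. TARP (diamond), at 1.94 and 2.04, stands beyond KLK2, at 1.41 and 1.39, and the androgen-induced genes (blue) lie mostly in the upper right.

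Genes that androgen induces made up the pathway against which TARP was set. The list held 50 genes besides TARP, of which 31 were named in the annotation and 28 were tested. In the mean of the taxanes, 27 of the 28 were higher in full serum, limma called 17 higher and 0 lower, and the median log2 change was 0.459. Under cabazitaxel alone it called 12 and under docetaxel alone 9, all higher. The methods' t-test called 2 of the 28 in the mean and 0 under either drug alone, with 21, 16 and 13 at an unadjusted p under 0.05. Among all 11105 genes it called 3 in the mean, 2 under cabazitaxel and 0 under docetaxel, with 1012, 618 and 778 at that unadjusted p. Over all genes tested, in the mean of the taxanes, 51.4% were higher in full serum and the median was 0.00288. Limma called 0.585% of them higher and 1.07% in either direction. Some listed genes, such as STK39 and ABHD2, were already known from these arrays to be higher in full serum with vehicle, so their direction is not independent evidence.

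KLK2, a kallikrein protease of prostate secretion, was the next largest rise after TARP, by 1.40 (SE 0.112, limma adjusted p = 0.000105). Its log2 intensity in the charcoal taxane arrays was 6.86, 6.52, 6.88 and 6.71, and in the full serum ones 8.05, 8.16, 8.03 and 8.34. Those arrays did not overlap. KLK3, which encodes prostate-specific antigen, rose by 0.89 (SE 0.124) and KLK4, another kallikrein, by 0.39 (SE 0.0657), with limma adjusted p = 0.00471 and 0.0159. Among the kallikreins KLK2 and KLK3 had smaller changes under the taxanes than with vehicle, at 1.41 and 1.39 against 1.62 for KLK2 and 0.96 and 0.83 against 1.11 for KLK3. KLK4 did not share this, at 0.373 under cabazitaxel and 0.401 under docetaxel against 0.386 with vehicle. The SE of each of these changes was 0.159 for KLK2 and 0.176 for KLK3. Full vehicle replicate 2 held the highest log2 value of KLK2 and of KLK3, at 8.51 and 10.52, against 8.19 and 10.24 in replicate 1. Their smaller changes under the taxanes were not tested without that array. TARP had larger changes under the taxanes as deposited, at 1.94 and 2.04 against 1.86. With the assumed background of 16 subtracted TARP stood at 2.69 and 2.86 against 2.81, so its order under cabazitaxel turned. Limma called 0 of all 11105 genes for a difference in serum change between treatments, with 380 at an unadjusted p under 0.05 for cabazitaxel against vehicle and 401 for docetaxel against vehicle (426 for each by the methods' t-test, which called 0).

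HERC3, a ubiquitin ligase gene, rose by 1.04, CENPN, which encodes a centromere protein, by 0.98, the stress kinase gene STK39 by 0.94 and the zinc finger gene ZBTB10 by 0.91. ABHD2, a lipase gene, rose by 0.75, the scaffold gene HOMER2 by 0.66, C1orf116 by 0.65 and SPDEF, an ETS transcription factor of secretory epithelium, by 0.59. FKBP5, a cochaperone of steroid receptors, rose by 0.54 (limma adjusted p = 0.00457). At the other end, MERTK stood at -0.034, STEAP4 at 0.0037, KRT8 at 0.042 and GNMT at 0.08, and limma called none of them.

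**Figure D3:**
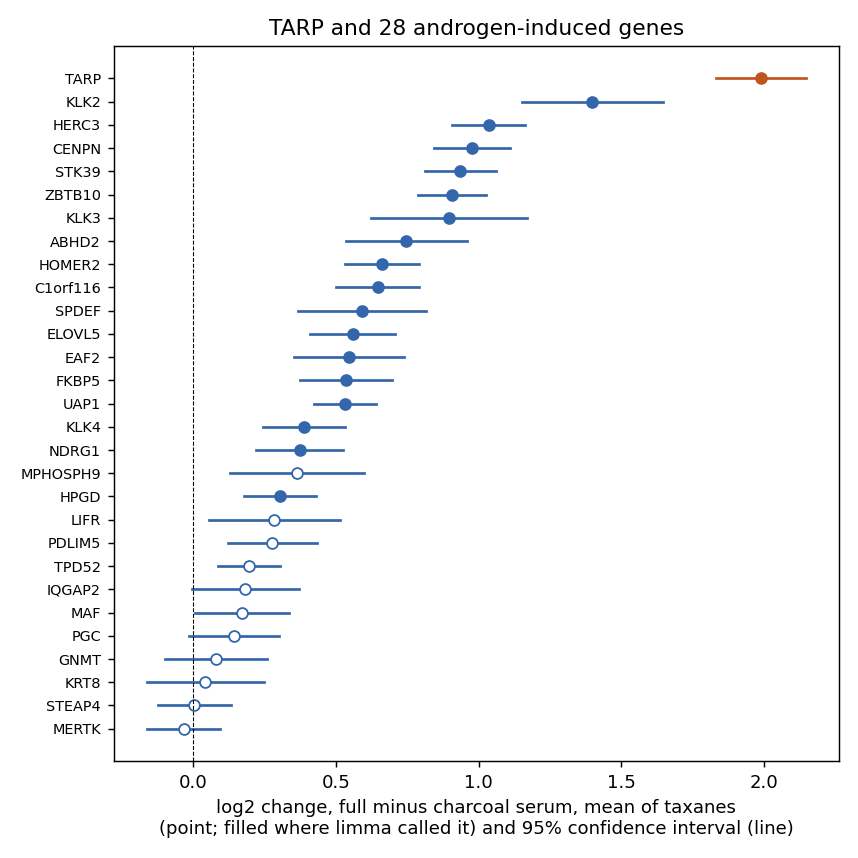
Log2 change from charcoal to full serum as the mean of the taxanes (points, filled where limma called the gene) with 95% confidence intervals (lines) for TARP and the 28 androgen-induced genes tested (vertical axis). TARP at 1.99 heads the order, its interval of 1.83 to 2.15 lies above that of each listed gene, and MERTK at -0.034 ends it.

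Genes with small RNA, LOC, LINC or open reading frame symbols were left out of a ranking of the genes tested. Among the others, the 10 with the largest change in either direction were TARP, KLK2, HERC3, CENPN, TLL1, STK39, SNAI2, ZBTB10, RASSF3 and KLK3. TLL1, a metalloprotease gene of matrix processing, was the one that went down, by a log2 change of -0.98. SNAI2, the gene of a Snail family repressor, rose by 0.92 and RASSF3, a Ras-association domain gene, by 0.90.

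The neighbourhood of TARP on the chromosome was examined by the 5 nearest tested genes on either side in the RefSeq order (assembly GRCh38.p14), from EEPD1, MATCAP2, MIR1200, EPDR1 and STARD3NL to VPS41, YAE1, RALA, LINC00265 and CDK13. Limma called 0 of these 10 between the sera in the mean of the taxanes, where 1.07% of all genes were called, and 0 had an unadjusted p under 0.05 by limma or by the methods' t-test. Under cabazitaxel alone limma called 0 of the 10, with LINC00265 at 0.32 (unadjusted p = 0.0246). The methods' t-test called 1, YAE1 at -0.26 (adjusted p = 0.000605 by that test, 0.732 by limma). That call rests on replicates almost alike, at a log2 of 6.9843 and 6.9841 in charcoal serum and 6.7282 in both full serum arrays. With vehicle YAE1 stood at 0.12 and under docetaxel at 0.038. Under docetaxel alone both tests called 0 of the 10, with 0 at an unadjusted p under 0.05. In the mean of the taxanes the log2 changes of the 10 ran from -0.13 for CDK13 to 0.15 for LINC00265. The nearest, STARD3NL, a cholesterol-binding membrane protein gene, stood at 0.13 (SE 0.0699). Levels differed among the 10, from MIR1200 at a log2 of 4.36 to 4.53 and EPDR1 at 4.39 to 4.74 up to YAE1 at 6.73 to 7.16. The median of all values was 4.48, and a serum change in genes so near it may not show. TRG-AS1, an antisense RNA of the receptor gamma locus, had intensities of 19.2 to 22.5 over the 12 arrays, too low to be tested.

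Markers of T cells, the other cell type that reads this locus, were low in every array. Of 22 T-cell markers 13 were named, and each lay between 18.5 and 30.2 in all arrays. Their summed intensity was 290.5 to 301 in charcoal serum and 289.5 to 305 in full serum. Limma called 0 of the 8 that were tested between the sera in the mean of the taxanes, which is near the 1.07% called among all genes. Their log2 changes ran from -0.075 for CD8B to 0.064 for LAT. By limma and by the methods' t-test 0 of the 8 had an unadjusted p under 0.05, against 1129 and 1012 of all 11105 genes. Both called 0 under each taxane alone too, with CD7 at an unadjusted p = 0.0449 by limma under cabazitaxel and LAT at 0.0172 by the methods' t-test under docetaxel. CD4 stood at 0.039, CD7 at -0.066, CD8A at -0.017, CD247 at -0.057, LCK at -0.01 and ZAP70 at 0.033. CD2, CD28, IL7R, RAG1 and RAG2 were too low to test, with intensities of 18.5 to 22.4, and the CD3 chain genes and PTPRC were not analysed here.

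Prostate epithelial markers were present in the same arrays. All 10 of the 17 listed that were named were tested, the lowest single intensity being 42.7 for KRT8. In the mean of the taxanes limma called 3 of the 10 higher in full serum, KLK2, KLK3 and SPDEF, and 0 lower. Over all genes 0.585% were called higher. All 3 are also on the androgen-induced list, so they are not a separate result. Limma had 4 of the 10 at an unadjusted p under 0.05, against 1129 of all 11105 genes. The methods' t-test called 0 of the 10 and 3 of all genes. The median log2 change of the 10 was 0.0659, with FOLH1 at -0.29 and KRT18 at 0.18. FOLH1, which encodes prostate-specific membrane antigen, ran from 763 to 1421, KLK3 from 478 to 1466 and the epithelial adhesion gene EPCAM from 202 to 258. Of the stromal list 6 of 14 were named, the fibronectin gene FN1 at 393 to 689 and VIM at 28.9 to 39.1. Limma called 0 of the 4 tested, near the 1.07% called among all genes. Of these 4, 1 had an unadjusted p under 0.05 by limma and by the methods' t-test. FN1 stood at 0.29 (limma adjusted p = 0.348) in the mean of the taxanes. Of 11 basal and neuroendocrine markers 9 were named, none above 33.2 in any array. Limma called 0 of the 5 tested, again near that 1.07%. It had 0 at an unadjusted p under 0.05, and the methods' t-test had 1. The part of these markers in the TARP change was not tested beyond these values.

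The series' own comparison was of drug against vehicle. TARP stood 0.17 to 0.35 above vehicle on the log2 scale with either taxane in both sera, and none of these differences passed. With cabazitaxel its log2 difference from vehicle was 0.23 (95% confidence interval 0.0072 to 0.45) in charcoal serum, 0.31 (0.087 to 0.53) in full serum and 0.27 (0.11 to 0.43) in their mean. The last is 1.21-fold (SE 0.072 on the log2 scale, unadjusted p = 0.00309, limma adjusted p = 0.854). With docetaxel it was 0.17 (-0.057 to 0.39), 0.35 (0.13 to 0.57) and 0.26 (0.1 to 0.42), the mean being 1.20-fold (unadjusted p = 0.00411, limma adjusted p = 0.757). Both drugs were set against the same 4 vehicle arrays, so their values for TARP are not independent of each other.

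In each serum all 4 taxane arrays exceeded both vehicle arrays, the closest pair being 31.0 against 29.3 in charcoal serum and 115.97 against 104 in full serum. That pattern held for 4.95% of the genes tested in charcoal serum, 9.45% in full serum and 0.54% in both sera, and the opposite pattern for 0.459%. Limma called 0% of genes in each of the drug comparisons, with 520 at an unadjusted p under 0.05 for cabazitaxel and 672 for docetaxel in the mean of the sera. The methods' t-test called 0 after adjustment too, with 503 and 650 below that unadjusted p. TARP ranked 28 of 11105 by size of rise with cabazitaxel and 74 with docetaxel. The exact permutation test over drug labels within serum gave p = 0.0556 for each drug, two-sided and the smallest possible. Without full docetaxel replicate 2 the docetaxel difference in full serum was 0.18, without replicate 1 it was 0.52, and with the assumed background of 16 subtracted the differences in charcoal serum were 0.48 for cabazitaxel and 0.36 for docetaxel.

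Of the 28 androgen-induced genes limma called 0 with either drug in the mean of the sera, and 0 had an unadjusted p under 0.05 by limma or the methods' t-test, against 520 and 672 of all genes by limma. In the mean of the sera their median log2 difference was -0.00951 with cabazitaxel, in a range of -0.139 to 0.157, and 0.0213 with docetaxel, in a range of -0.0782 to 0.132. Over all genes the medians were 0.00208 and 0.00913. KLK2 stood at -0.14 and -0.048 and KLK3 at -0.13 and -0.078, below vehicle, and KLK4 at 0.043 and 0.021, above it, where TARP stood at 0.27 and 0.26. The difference between TARP and these genes was not tested.

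Cabazitaxel carries methoxy groups at positions where docetaxel has hydroxyl groups, and both were given at 1 nM for 16 h. Their TARP levels were compared in 3 ways. Cabazitaxel minus docetaxel was 0.064 on the log2 scale in charcoal serum (95% confidence interval -0.16 to 0.29), -0.041 in full serum (-0.26 to 0.18) and 0.012 in the mean of the sera (-0.15 to 0.17). None passed (limma p adjusted over the 3 comparisons = 0.873 for each, and over all genes 0.948, 1.00 and 0.994). As folds of cabazitaxel over docetaxel the intervals ran from 0.896 to 1.22 in charcoal serum and from 0.904 to 1.12 in the mean. Leaving out full docetaxel replicate 2 turned the full serum value to 0.13, and leaving out its replicate 1, charcoal cabazitaxel replicate 1 or charcoal docetaxel replicate 2 turned the mean to -0.075, -0.0058 or -0.0057.

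**Figure D4:**
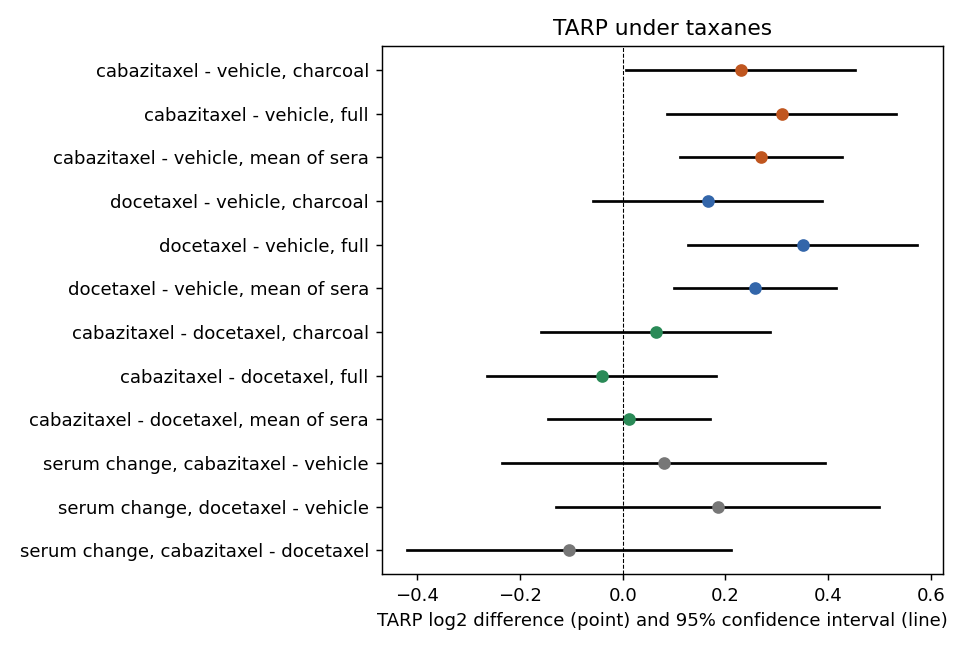
TARP log2 difference (point) and 95% confidence interval (line) for each taxane against vehicle, for cabazitaxel against docetaxel, and for the difference in serum change between treatments (vertical axis). The taxane points lie between 0.17 and 0.35, while the intervals of cabazitaxel against docetaxel and of the serum differences all include 0.

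Whether the serum change itself differed with treatment was asked through interactions. The serum change of TARP was larger under cabazitaxel than under vehicle by 0.079 (interval -0.24 to 0.39, limma adjusted p = 0.999) and under docetaxel than under vehicle by 0.18 (-0.13 to 0.50, limma adjusted p = 0.999). Cabazitaxel minus docetaxel in serum change was -0.11 (-0.42 to 0.21, limma adjusted p = 1.00). None passed, and the first turned to -0.12 with the assumed background of 16 subtracted, while the second stood at 0.36 without full docetaxel replicate 1 and at 0.012 without replicate 2, where the third stood at 0.068. The comparisons with vehicle hold the arrays on which TARP was picked.

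The genes whose values ran most closely with TARP over the 12 arrays were named by Pearson correlation, with the same kinds of symbol left out. CENPN had r = 0.988, UAP1, an enzyme gene of amino sugar synthesis, 0.986, SNAI2 0.985, HERC3 0.982, STK39 0.975, HOMER2 0.972, ZBTB10 0.968 and KLK2 0.966. The arrays fall into clusters by serum, and these values describe that shared step. Within the 6 charcoal arrays r with TARP ran from -0.52 for ZBTB10 to 0.672 for SNAI2, and within the 6 full serum arrays from -0.138 for KLK2 to 0.858 for HERC3. Replicates and normalisation are shared by all these points, and no p is given.

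SNAI2 was above 0.6 in both sera, and its log2 difference from vehicle in the mean of the sera was 0.14 with cabazitaxel and 0.18 with docetaxel, neither passing (limma adjusted p = 1.00 and 0.794). Running opposite to TARP were LRRN1, a leucine-rich repeat gene, at r = -0.964, the chemokine receptor gene ACKR3 at -0.963, TLL1 at -0.962 and LNX2, a ubiquitin ligase gene, at -0.961. Each of these 4 fell in full serum in the mean of the taxanes, ACKR3 by 0.64, LRRN1 by 0.49 and LNX2 by 0.29 on the log2 scale. With the assumed background of 16 subtracted, 7 of the 8 closest genes were still among the closest 8.

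**Figure D5:**
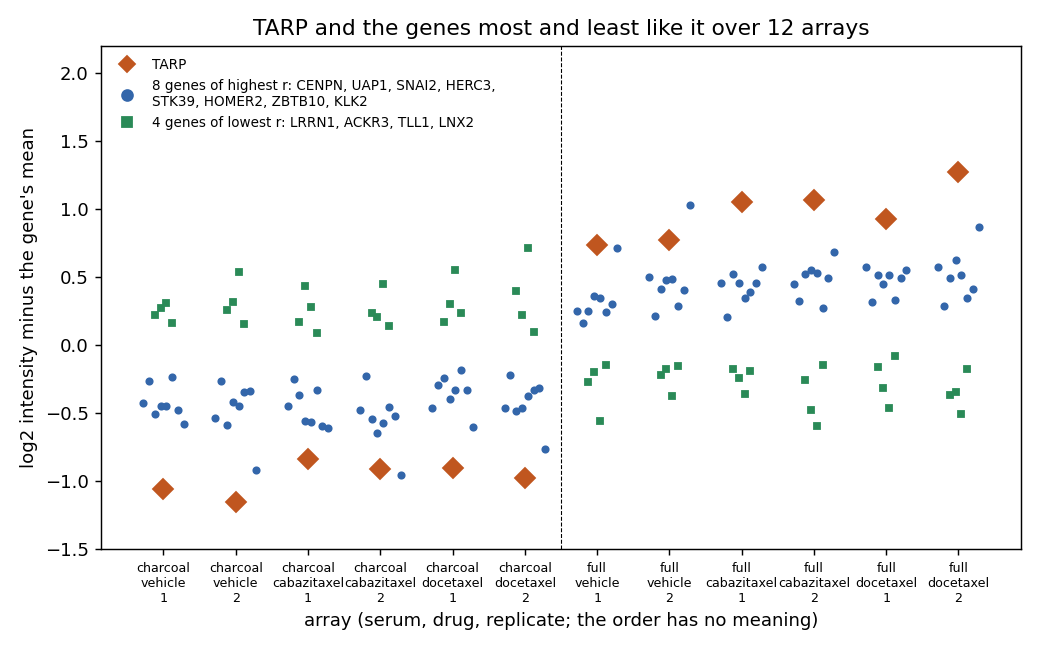
Log2 intensity minus each gene's own mean (vertical axis) in the 12 arrays (horizontal axis) for TARP (diamonds), the 8 genes of highest r with it (circles) and the 4 of lowest r (squares). The genes step together at the change of serum, where TARP moves by about 2 log2 units and UAP1 by 0.53.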

How the data were processed

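Total RNA from 12 LNCaP samples was hybridised to Affymetrix Human Gene ST arrays. The authors deposited intensities after RMA and a filter on low expression, per the submitters' processing notes and design text, with version and threshold not given in the sources used here. The values are linear, from 17.3 to 6307, and 57.5% lie below 24. Precision here is limited by how many arrays there are.

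Values were analysed on the log2 scale. The 15835 transcript clusters with 1 gene symbol in the platform annotation were kept, the other 28794 left out, and the cluster of highest mean was used for each of 14812 genes. Testing kept the 11105 genes that passed the overall median value in 2 or more arrays. Limma 3.58.1 (R 4.3.3) fitted all 12 arrays with a mean for each group (6 residual and 5.08 prior degrees of freedom). P-values are two-sided, with Benjamini-Hochberg adjustment over genes in each of 16 comparisons, and "called" means an adjusted p under 0.05. The fit was also run on simulated data with independent noise in each array. That setting lacks the correlated deviations of same-numbered samples given below, and no result here rests on it. TARP and the gene lists were chosen with earlier results of these data known. Named are TARP, its locus, T-cell markers and kallikreins, the 10 androgen-induced genes and the 10 genes overall of largest serum change under taxanes, 8 genes most and 4 least correlated with TARP, and 5 neighbours on either side. The 10 genes overall and the correlated genes were taken without small RNA, LOC, LINC and open reading frame symbols. Others were named after their values were seen, and 1 further gene list is not reported here. Alternatives changed the scale, filter, gene set, normalisation, variance model, groups fitted, replicate block and test, and left out each array.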

Additional observations from a re-analysis of the deposited data

How the results depend on the processing

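Over the 8 alternatives other than leaving out an array, the serum rise of TARP kept its direction, and limma called it in both taxanes and in their mean. By the methods' t-test the log2 changes of 1.94, 2.04 and 1.99 did not pass after adjustment. Their unadjusted p by that test was 0.000342, 0.00736 and 2.47e-05. Subtracting an assumed offset of 16 moved the vehicle serum change to 2.81 and turned the interaction of cabazitaxel against vehicle to -0.124. No TARP drug difference passed under any alternative. Leaving out each array in turn gave serum changes of 1.81 to 1.91 with vehicle, 1.90 to 1.97 with cabazitaxel, 1.87 to 2.21 with docetaxel and 1.90 to 2.07 in the taxane mean, all 3 tested ones still called. Cabazitaxel differences ran from 0.179 to 0.28 in charcoal, 0.291 to 0.328 in full serum and 0.244 to 0.295 in the mean, and docetaxel ones from 0.115 to 0.216, 0.178 to 0.523 and 0.172 to 0.344. Cabazitaxel minus docetaxel ran from 0.0292 to 0.0993 in charcoal, -0.213 to 0.132 in full serum and -0.0746 to 0.098 in the mean, and the interactions from 0.0289 to 0.13, 0.0119 to 0.357 and -0.278 to 0.0675.

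Counts moved more. The genes called under cabazitaxel, docetaxel and their mean (44, 35 and 119) became 10, 9 and 62 with the offset subtracted, and 2, 0 and 3 by the methods' t-test, which left 618, 778 and 1012 at an unadjusted p under 0.05. They became 25 and 22 for the single drugs without the filter, and 7 and 12 with only the groups compared in the fit. The replicate block gave 62 for docetaxel and 190 for the mean. Leaving out arrays gave 9 to 43, 7 to 39 and 62 to 130. The cabazitaxel count fell to 9 to 29 without any one array other than those of full vehicle, the docetaxel count to 7 to 21 without any docetaxel array, and the mean's to 62 to 73 without charcoal docetaxel replicate 2 or any one taxane array in full serum. The 17 androgen-induced genes called became 11 among all transcript clusters, 2 by the methods' t-test and 12 to 17 without single arrays. Same-numbered samples correlated in their deviations with r from -0.049 to 0.33, over 0.1 in 10 of 15 pairs of groups but not in all, and the labels tie no number to a shared source. The numbers were therefore not taken to pair the samples, and the replicate block changed no TARP call. The cause of these shifts was not tested.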
